A study of Mus musculus with 8 samples.

Results

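The genes described here are 33 genes of DNA replication and mitosis, read in whole liver of young mice with the ΔF508 change in Cftr (CF) and of their wild-type littermates (WT). Each was found by its gene symbol in the annotation of the bead array, and where several probes carried the symbol, the probe with the highest mean over the 8 arrays stood for the gene. Of the 33 genes, 29 had a named probe, out of 16593 named genes on the array. Above the background level of 6.47 on the log2 scale on at least 4 arrays were 18 of the 29, out of 9146 such genes on the array, and these were tested. The other 11 lay near background, and Mki67, Ccnb1, Aurkb and Cdkn3 had no named probe and are not analysed here. By role, 14 are S-phase genes, of which 10 were tested, and 19 are mitotic genes, of which 8 were tested.

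A cell that divides first licenses its replication origins by loading the Mcm helicase with the help of Cdc6 and Cdt1, then copies its DNA from a supply of deoxynucleotides made by ribonucleotide reductase and thymidylate synthase. In mitosis, cyclin-dependent kinase Cdk1 and the Aurora and Polo kinases drive spindle assembly, and the anaphase-promoting complex with Cdc20 releases the chromosomes. The liver of a weanling mouse is still growing, and around weaning some mouse hepatocytes pass through DNA replication without completing cell division and become polyploid.

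Both groups were female C57BL/6 mice of 3 weeks, 4 samples with the genotype CF and 4 with the genotype WT. All mice of both genotypes were treated alike: weaning was at day 21, the diet was an enriched chow, the only drink was a diluted laxative of polyethylene glycol with electrolytes (Colyte), and tissue was taken at day 23. The ΔF508 change was not limited to a cell type. Total RNA, copied into cRNA with biotin, was hybridised to single-colour bead arrays, and the deposited values are log2 levels that the authors had already scaled to the same distribution on each array. The labels number the replicates 1 to 4 in each genotype and do not state that each came from a separate mouse, so the p-values measure the spread between these samples. Below, values per array are log2 levels in the order of replicates 1 to 4, differences are CF minus WT on the log2 scale with their fitted standard error (SE), and adjusted p-values are from limma with Benjamini-Hochberg adjustment over all tested probes, with a threshold of 0.05.

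The Cftr probe was above background on 0 of the 8 arrays (6.06 ± 0.12 in CF and 6.11 ± 0.03 in WT livers, SD, n = 4 each), and a probe cannot show a deletion of this kind, so the genotype labels were not checked by it. Of 8 hepatocyte markers listed, 5 were at 13 or above, with Ttr, the thyroid hormone carrier of plasma, at 14.37 ± 0.04 in CF and 14.38 ± 0.04 in WT livers. The albumin gene Alb was lower on the scale, at 7.92 in CF and 7.97 in WT livers, the tyrosine aminotransferase gene Tat was at 6.53 in CF and 6.29 in WT livers (above background on 4 of 8 arrays), and the fibrinogen gene Fgb was near background on all arrays. Genes of the exocrine pancreas and intestine stood apart on CF 1 and WT 3. Their summed linear level over 14 listed symbols was 76440 on CF 1 and 85900 on WT 3, against 2326 to 17650 on the other 6 arrays. Cela3b and Ela3 are symbols of the same gene and probe, which enters that sum under each. For the replication and mitosis genes and the pathway lists, results are also given without CF 1 and WT 3 where calls change. For marker genes no such result is given. Across all 9146 tested genes the median difference was 0.02, and 45.9% of the differences were negative.

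The replication and mitosis genes that passed the test were all lower in CF livers. Of the 18 tested, 8 were lower and 0 higher at an adjusted p under 0.05, against 8.79% of all tested genes lower, 11% higher and 19.8% changed in either direction. At an unadjusted p under 0.05 in limma, 13 of the 18 differed, each of them lower in CF livers, against 33.4% of all tested genes in either direction and 14.7% lower. Without any filter on dim probes, 8 of the 29 genes were lower and 0 higher, against 4.5% and 5.7% of all named genes. The 8 were the mitotic genes Prc1, Cdc20, Cdk1, Aurka and Top2a and the S-phase genes Mcm5, Tyms and Mcm4, with differences of -1.01 to -0.41. Top2a was tested through its WT arrays alone, and without it 7 of 17 were lower. Over the 18 genes the median difference was -0.42, and over the 29 with a probe it was -0.24, beside 0.02 for all tested genes and 0.01 for all with a probe. The difference was negative in 17 of the 18, the exception being Pcna. In whole liver, fewer dividing cells and less of these transcripts per cell cannot be told apart. Leaving out CF 1, CF 2 or WT 2 lowered the count from 8 to 5, and leaving out CF 1 and WT 3 together lowered it to 4. Calls fell over the whole array as well. Of all tested probes, 8.8% were lower in CF livers with all arrays. That share was 6.57% without CF 1, 7.37% without CF 2, 6.79% without WT 2 and 4.09% without CF 1 and WT 3 together.

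**Figure D1:**
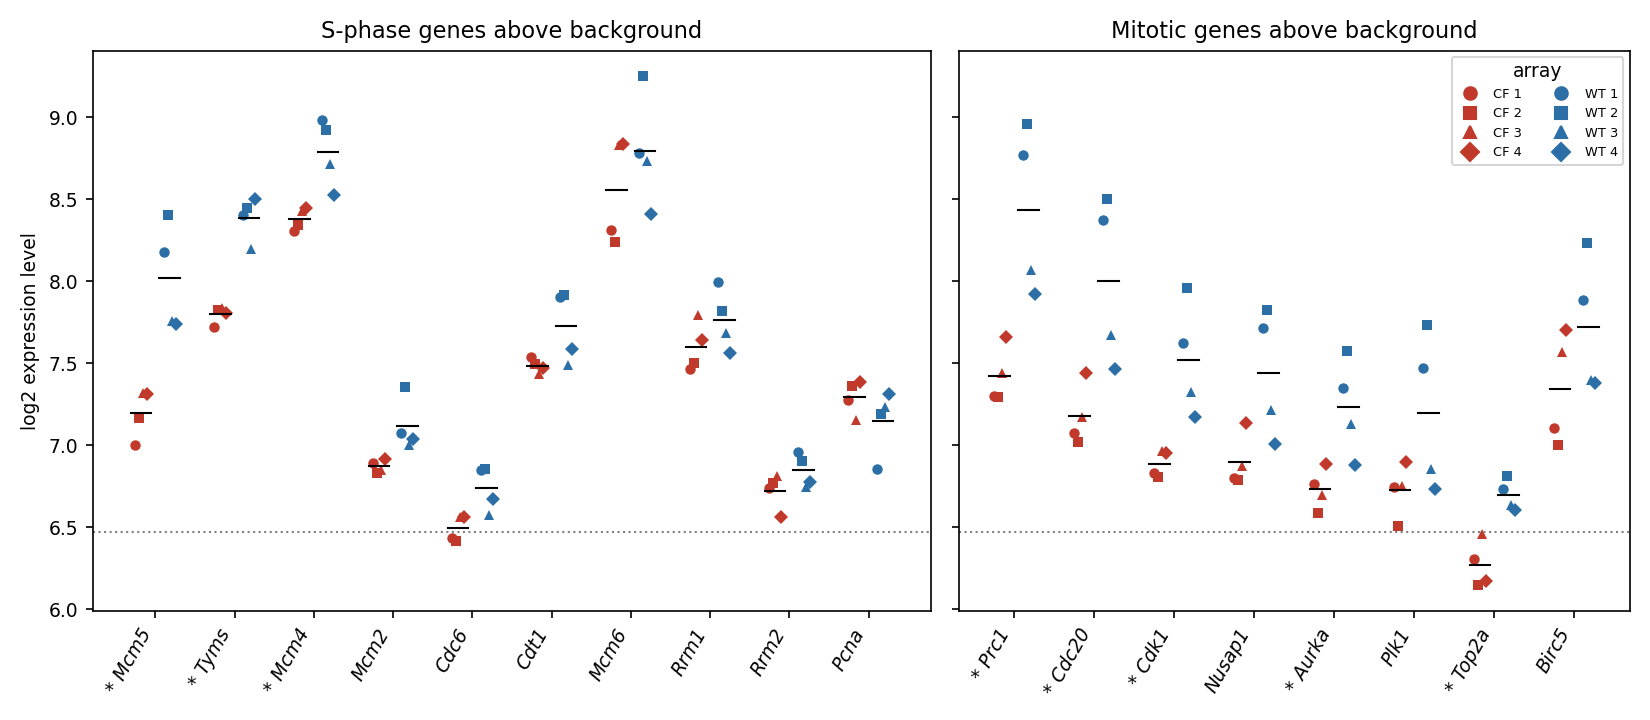
Log2 expression level of the 10 S-phase and 8 mitotic genes above background, with 1 point per array, 4 CF arrays left and 4 WT arrays right for each gene, and short bars for the group means. The dotted line is the background level of 6.47, and an asterisk marks the 8 genes with an adjusted p under 0.05, all of them lower in CF livers.

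The promoters of these genes are shown because 17 of the 18 tested genes had a negative difference, 8 of them past the threshold. Another reason is that the 2 roles are known for different promoter elements. Genes of the G1 to S transition commonly hold E2F sites, and genes of G2 and mitosis commonly hold a cell-cycle genes homology region (CHR) near a CCAAT box. RefSeq windows of 250 bases before to 50 after the annotated start (build GRCm38.p6) were matched for 29 of the 33 genes; Aurkb, Ccna2, Ccne2 and Mcm4 had no window. On either strand, the CHR letters TTTGAA were in 12 of 17 mitotic and 1 of 12 S-phase windows, against 20.2% of the 27025 genes with a window. E2F letters (TTTCCCGC, TTTGGCGC, TTTCGCGC or TTTGCCGC) were in 6 of 12 S-phase and 1 of 17 mitotic windows, against 2.6% of all. CCAAT was in 15 of 17 mitotic and 8 of 12 S-phase windows, against 41.1% of all. A match is a description of the letters and was not tested as a binding site. The 160 bases before the start are printed 5′ to 3′ on the gene's strand for 3 mitotic genes and 1 S-phase gene that were lower in CF livers, and for Pcna, the single tested gene with a positive difference. Capitals mark the CHR, CCAAT and E2F letters on either strand, so that a CCAAT box on the opposite strand is seen as ATTGG. Prc1 has 2 windows, and the downstream one is shown.
Prc1 (chr7:80294316-80294475, plus strand): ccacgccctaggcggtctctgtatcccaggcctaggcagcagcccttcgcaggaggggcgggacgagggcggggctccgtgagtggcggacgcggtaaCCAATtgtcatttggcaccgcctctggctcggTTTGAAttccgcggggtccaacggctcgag
Cdc20 (chr4:118437344-118437503, minus strand): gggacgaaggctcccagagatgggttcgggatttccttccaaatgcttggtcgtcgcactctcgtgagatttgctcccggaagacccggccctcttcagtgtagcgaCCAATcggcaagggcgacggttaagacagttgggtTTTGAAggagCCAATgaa
Cdk1 (chr10:69352913-69353072, minus strand): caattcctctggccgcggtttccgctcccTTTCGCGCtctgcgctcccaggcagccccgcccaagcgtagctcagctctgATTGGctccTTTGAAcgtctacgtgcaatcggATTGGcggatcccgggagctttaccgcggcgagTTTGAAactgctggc
Mcm5 (chr8:75109349-75109508, plus strand): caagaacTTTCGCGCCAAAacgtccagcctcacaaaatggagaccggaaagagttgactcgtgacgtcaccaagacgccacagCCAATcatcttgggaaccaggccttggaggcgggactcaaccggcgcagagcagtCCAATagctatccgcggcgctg
Pcna (chr2:132253181-132253340, minus strand): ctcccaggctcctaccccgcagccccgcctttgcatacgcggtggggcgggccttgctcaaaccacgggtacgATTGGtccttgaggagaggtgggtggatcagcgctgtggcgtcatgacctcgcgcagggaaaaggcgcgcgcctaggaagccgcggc
In these stretches, Prc1 has its CHR letters 30 bases and its CCAAT 62 bases before the start. Cdc20 has CHR letters 18 bases before the start, and Cdk1 has them 71 and 15 bases before it along with the single E2F match among the mitotic genes. Mcm5 has 2 E2F matches that overlap, and Pcna has a CCAAT match and neither of the other motifs in these letters. Among the other mitotic genes lower in CF livers, Top2a and Aurka also had CHR letters in the window. The letters were not limited to genes with a call. Plk1, which did not pass, had them, as did Bub1b, Ccnb2, Hmmr and Ube2c near background. So did Mki67 and Cdkn3, which had no named probe.

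Of the mitotic genes, 5 of the 8 tested were lower in CF livers (Prc1, Cdc20, Cdk1, Aurka and Top2a), against 8.79% of all tested genes. Another 3 did not pass, and 0 were higher. The call of Top2a, tested through its WT arrays alone, was built into its choice. With signal required above background on all 8 arrays, which leaves Top2a out, 4 of 7 were lower. The median difference of the 8 was -0.52, and of the 15 mitotic genes with a probe it was -0.38. The count of 5 fell to 3 without CF 1, CF 2, CF 3, WT 1 or WT 2 and to 2 (Prc1 and Top2a) without CF 1 and WT 3 together. Prc1, which bundles microtubules of the central spindle for cytokinesis, had levels of 7.30, 7.30, 7.44 and 7.66 in CF livers, against 8.77, 8.96, 8.07 and 7.93 in WT livers. All 4 CF arrays lay below all 4 WT arrays, and WT 1 and WT 2 were clearly above WT 3 and WT 4. The difference was -1.01 ± 0.22 (SE), a 2.01-fold lower level in CF livers (adjusted p = 0.0132). Prc1 kept its call in each of the 19 alternative analyses, with an adjusted p of 0.00717 to 0.0448.

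Cdc20, the activator of the anaphase-promoting complex, had levels of 7.07, 7.02, 7.17 and 7.44 in CF livers, against 8.37, 8.50, 7.67 and 7.47 in WT livers. The groups did not overlap, but CF 4 was just below WT 4, and the high WT mean rested on WT 1 and WT 2. Cdc20 was 1.77-fold lower in CF livers, a difference of -0.83 ± 0.22 (SE, adjusted p = 0.0308). Its 2 other probes above background differed by -0.70 (adjusted p = 0.0522) and -0.49 (adjusted p = 0.0594). The call on the brightest probe was lost without any single array of CF 1, CF 2, CF 3, WT 1 or WT 2 and without CF 1 and WT 3 together, and over all alternatives its adjusted p was 0.0126 to 0.0783.

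Cdk1, the kinase that starts mitosis, had levels of 6.83, 6.80, 6.97 and 6.95 in CF livers, against 7.62, 7.96, 7.33 and 7.17 in WT livers. The CF arrays were close to each other and all below the WT arrays, which spread widely. The level was 1.55-fold lower in CF livers, with a difference of -0.63 ± 0.15 (SE, adjusted p = 0.0196). The call held with any single array left out and was lost with CF 1 and WT 3 both left out (adjusted p = 0.0652, from a range of 0.00994 to 0.0652 over the alternatives).

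Aurka, the Aurora kinase of centrosomes and spindle poles, had levels of 6.76, 6.59, 6.69 and 6.89 in CF livers, against 7.35, 7.58, 7.13 and 6.88 in WT livers. The groups overlapped slightly, since CF 4 was just above WT 4, and the other WT arrays were higher than all CF arrays. The difference was -0.50 ± 0.14 (SE, adjusted p = 0.0344), a 1.41-fold lower level in CF livers. That call was lost without CF 1, CF 2, CF 3, WT 1, WT 2 or WT 3 and without CF 1 and WT 3 together, with an adjusted p of 0.0116 to 0.107 over the alternatives.

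Top2a, the topoisomerase that untangles replicated chromosomes, had levels of 6.31, 6.15, 6.46 and 6.17 in CF livers, against 6.73, 6.81, 6.63 and 6.61 in WT livers. It was above background on 0 of 4 CF arrays and on 4 of 4 WT arrays, and it was tested through its WT arrays alone, so a difference was built into its choice. Its level in CF livers was at least 1.17-fold lower, taking the background level for CF, while the fitted difference between the measured means of 6.27 and 6.70 was -0.42 (adjusted p = 0.00943).

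The 3 mitotic genes that did not pass also had WT 2 as the highest and CF 2 as the lowest array. Nusap1, a microtubule-binding protein of the spindle, had levels of 6.80, 6.79, 6.87 and 7.13 in CF livers, against 7.72, 7.83, 7.21 and 7.01 in WT livers, a difference of -0.54 ± 0.18 (SE, adjusted p = 0.0598). It passed the threshold without WT 4 (adjusted p = 0.0211, from a range of 0.0211 to 0.138). Plk1, the Polo kinase of mitotic entry and cytokinesis, had levels of 6.75, 6.51, 6.75 and 6.90 in CF livers, against 7.47, 7.73, 6.86 and 6.73 in WT livers. Its groups overlapped because WT 3 and WT 4 lay within the range of the CF arrays (difference -0.47 ± 0.21 SE, adjusted p = 0.150). Birc5 (survivin), which guides the chromosomal passenger complex to centromeres, had levels of 7.11, 7.003, 7.57 and 7.70 in CF livers, against 7.88, 8.24, 7.40 and 7.38 in WT livers. CF 3 and CF 4 were above WT 3 and WT 4, and the difference was -0.38 ± 0.22 (SE, adjusted p = 0.268).

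The other 7 mitotic genes with a probe were above background on 0 of 8 arrays each. They were Ccna2 and Ccnb2, cyclins of the mitotic kinases; Bub1 and Bub1b, kinases of the spindle checkpoint; Ube2c, the ubiquitin-conjugating enzyme of the anaphase-promoting complex; Cenpe, a kinetochore motor; and Hmmr, a spindle-associated protein. Their group means were between 5.92 and 6.29, and their differences ran from -0.13 (Ube2c) to 0.12 (Cenpe). At these signals the probes do not show whether the transcripts differed.

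Of the 10 S-phase genes tested, 3 were lower in CF livers (Mcm5, Tyms and Mcm4), against 8.79% of all tested genes. The other 7 did not pass, and 0 were higher. The median difference was -0.24 for the tested genes and -0.20 for the 14 with a probe. Whether the 2 roles differ from each other was not tested, because the genes were chosen with results of these data known. Their medians of -0.24 and -0.52 are given as a description.

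Of the Mcm helicase subunits, which form a ring that unwinds the DNA, 4 were above background and 2 of these passed. Mcm5 had levels of 7.0003, 7.16, 7.32 and 7.31 in CF livers, against 8.18, 8.41, 7.76 and 7.74 in WT livers. The groups were well separated, and again WT 1 and WT 2 were above the other WT arrays. Mcm5 was 1.77-fold lower in CF livers (difference -0.82 ± 0.15 SE, adjusted p = 0.00624) and kept its call in each of 19 alternatives.

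Mcm4 had levels of 8.30, 8.34, 8.43 and 8.45 in CF livers, against 8.99, 8.92, 8.72 and 8.53 in WT livers. No CF array reached a WT array, though CF 4 and WT 4 were near each other. The level was 1.33-fold lower in CF livers (difference -0.41 ± 0.10 SE, adjusted p = 0.0226), and the call was lost without CF 1, CF 2 or WT 2 and without CF 1 and WT 3 together, with an adjusted p of 0.00801 to 0.101 over the alternatives.

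Mcm2 had levels of 6.89, 6.83, 6.85 and 6.91 in CF livers, against 7.07, 7.36, 7.001 and 7.04 in WT livers. The groups did not overlap, but the difference of -0.25 ± 0.08 (SE) did not pass (adjusted p = 0.0735). Mcm6 had levels of 8.31, 8.24, 8.83 and 8.84 in CF livers, against 8.79, 9.25, 8.73 and 8.41 in WT livers, and here CF 3 and CF 4 were as high as WT arrays. Its 3 probes above background gave differences of -0.24 (adjusted p = 0.443), -0.47 (adjusted p = 0.0455) and -0.29 (adjusted p = 0.0614), so the probe that stands for the gene is the least different of them. Mcm3 was above background on 0 CF and 2 WT arrays, and Mcm7 on 0 of 8.

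Cdc6 and Cdt1, the loaders of the Mcm helicase, did not pass. Cdc6 had levels of 6.44, 6.42, 6.57 and 6.56 in CF livers, against 6.85, 6.85, 6.58 and 6.67 in WT livers. The groups did not overlap, by a narrow margin between CF 3 and WT 3, and only 2 CF arrays were above background (difference -0.24 ± 0.08 SE, adjusted p = 0.0691). It passed without WT 3 (adjusted p = 0.0498) and with a trended and robust variance prior (adjusted p = 0.0439), from a range of 0.0439 to 0.171. Cdt1 had levels of 7.54, 7.49, 7.43 and 7.47 in CF livers, against 7.91, 7.91, 7.49 and 7.59 in WT livers. CF 1 was above WT 3 there, and the difference was -0.24 ± 0.10 (SE, adjusted p = 0.137). Ccne1 and Ccne2, the E cyclins that start S phase, were above background on 1 and 0 arrays.

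Among the genes of nucleotide supply, Tyms passed. Tyms encodes thymidylate synthase, and its levels were 7.72, 7.83, 7.84 and 7.81 in CF livers, against 8.40, 8.45, 8.20 and 8.50 in WT livers. The CF arrays were almost equal and well below the WT arrays, and WT 4 was the highest array rather than WT 2. Tyms was 1.50-fold lower in CF livers (difference -0.59 ± 0.08 SE, adjusted p = 0.00129) and kept its call in each of 19 alternatives. Its 3 dimmer probes above background were not alike, at 0.08 (adjusted p = 0.446), -0.28 (adjusted p = 0.0271) and -0.02 (adjusted p = 0.875), and the mean of all 4 probes differed by -0.20.

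Rrm1 and Rrm2, the large and small subunits of ribonucleotide reductase, did not pass. Rrm1 had levels of 7.47, 7.50, 7.80 and 7.64 in CF livers, against 7.996, 7.82, 7.68 and 7.56 in WT livers (difference -0.16 ± 0.11 SE, adjusted p = 0.332). Rrm2 had levels of 6.74, 6.77, 6.81 and 6.56 in CF livers, against 6.96, 6.91, 6.75 and 6.77 in WT livers (difference -0.13 ± 0.08 SE, adjusted p = 0.308). In both genes the CF and WT arrays overlapped.

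Pcna, the sliding clamp of the replicative polymerases, was the single tested gene with a positive difference. Its levels were 7.28, 7.36, 7.15 and 7.39 in CF livers, against 6.86, 7.19, 7.23 and 7.32 in WT livers. The groups overlapped, with WT 1 the lowest array although it was high for most of the other genes. The difference of 0.15 ± 0.10 (SE) did not pass (adjusted p = 0.370), and it was positive in each alternative, at 0.05 to 0.20.

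**Figure D2:**
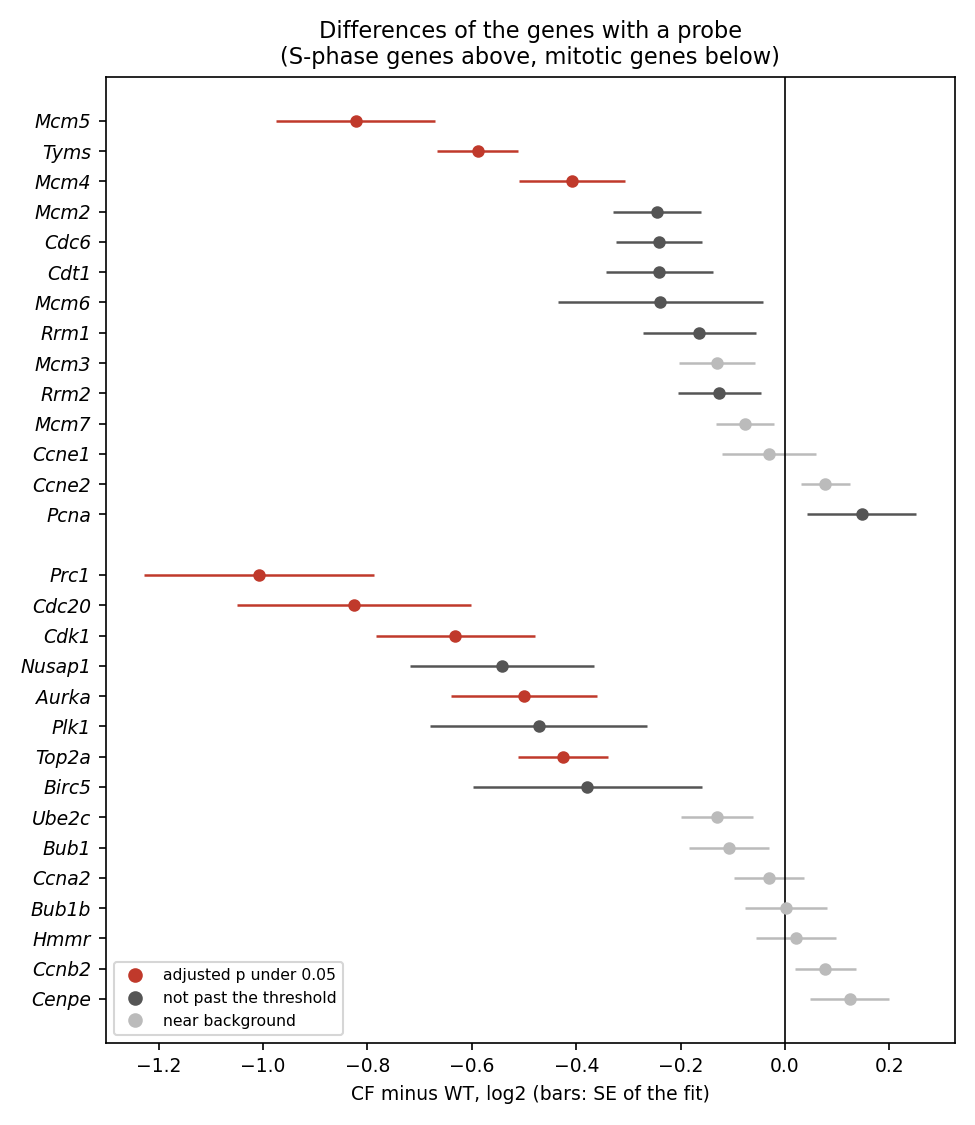
CF minus WT difference of the 29 genes with a probe on the log2 scale, S-phase genes above and mitotic genes below, with the SE of the fit as bars. The 8 genes in red passed the test and lie between -1.01 and -0.41, and the 11 near background, in light grey, lie between -0.13 and 0.12.

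All CF arrays were below all WT arrays in 9 of the 18 tested genes, against 10.5% of all tested genes. These were Mcm2, Mcm4, Mcm5, Tyms and Cdc6 among the S-phase genes and Top2a, Cdk1, Cdc20 and Prc1 among the mitotic genes. For Top2a, tested through its WT arrays alone, the separation was built into its choice. Aurka passed the test with groups that overlapped slightly, and Mcm2 and Cdc6 had separate groups and did not pass.

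The mitotic genes shared their highest and their lowest array. WT 2 was the highest and CF 2 the lowest of the 8 arrays for 8 of the 8 tested mitotic genes. The share of all tested genes with the same highest or lowest array was not counted. WT 1 and WT 2 were both above WT 3 and WT 4 for 8 of 8 mitotic and 8 of 10 S-phase genes, against 26.2% of all tested genes. CF 1 and CF 2 were both below CF 3 and CF 4 for 6 of 8 mitotic and 5 of 10 S-phase genes, against 20.8% of all. Genes read on the same array share its RNA, so this agreement is a description of the 8 arrays. The mean level over the 8 mitotic genes was 6.87, 6.77, 6.99 and 7.11 in CF livers, against 7.74, 7.95, 7.29 and 7.15 in WT livers. The highest CF array was just below the lowest WT array, and WT 1 and WT 2 stood above both. Top2a is in this mean, and its separation was built into its choice, so the narrow gap does not show separate groups. CF 4 was above WT 4 for Birc5, Aurka, Plk1 and Nusap1, and below it for Cdk1, Cdc20, Prc1 and Top2a. Over the 10 S-phase genes the mean level was 7.37, 7.39, 7.50 and 7.50 in CF livers, against 7.80, 7.91, 7.61 and 7.61 in WT livers. Here the groups were separate.

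**Figure D3:**
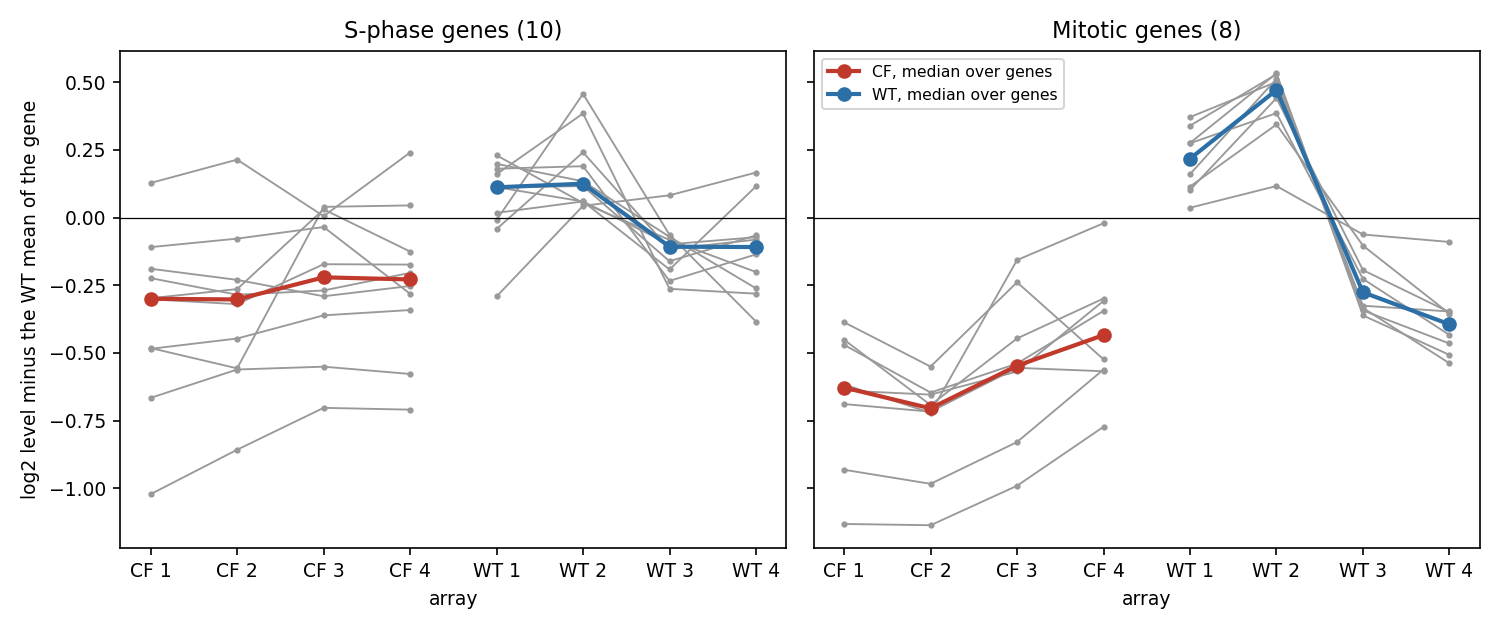
Level of each tested gene on each array minus the gene's WT mean, in log2 units, for 10 S-phase genes (left panel) and 8 mitotic genes (right panel). Grey lines join the values of a gene, replicate numbers carry no order, and the coloured points are medians over genes. For the mitotic genes the medians run from -0.70 to -0.43 on the CF arrays and from -0.39 to 0.47 on the WT arrays.

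The spread between replicates was wider in WT than in CF livers for 16 of the 18 tested genes. The share of all tested genes with a wider WT spread was not counted, and genes on the same arrays are not separate evidence. For the mitotic genes the median SD was 0.162 in CF and 0.403 in WT livers, and for the S-phase genes it was 0.0929 in CF and 0.193 in WT livers. Over all tested genes the medians were nearly equal, at 0.122 in CF and 0.116 in WT livers. The median difference of the 8 mitotic genes was -0.40 without WT 2 and -0.66 without WT 4, beside -0.52 with all arrays.

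Other genes of DNA replication also passed in the lower direction alone. Of 38 listed, 25 were tested, and 6 were lower in CF livers and 0 higher (13 at an unadjusted p under 0.05 in limma, each lower, beside the 14.7% lower of all tested genes), with a median difference of -0.30. Mcm10, which helps to activate the Mcm helicase, had levels of 8.76, 8.61, 8.26 and 8.85 in CF livers, against 9.69, 9.82, 9.97 and 9.74 in WT livers. These arrays were far apart by genotype, and their order differed from that of the mitotic genes, with WT 3 highest and CF 3 lowest. By its brightest probe, Mcm10 was 2.27-fold lower in CF livers (difference -1.19 ± 0.13 SE, adjusted p = 0.000457). The mean of its 2 tested probes differed by -0.86 (adjusted p = 0.00107). Rfc5, a subunit of the clamp loader that places Pcna on DNA, was lower in CF livers by 1.46-fold (adjusted p = 0.00237). Dut, which removes dUTP, was lower by 1.35-fold (adjusted p = 0.00599), Lig1, the ligase that joins Okazaki fragments, by 1.44-fold for its brightest probe (adjusted p = 0.0147), Dbf4, the activator of the Cdc7 kinase, by 1.33-fold (adjusted p = 0.0286), and Uhrf1, which recruits Dnmt1 to replicated DNA, by 1.66-fold (adjusted p = 0.0290). With any single array left out, Mcm10, Rfc5, Dut and Lig1 kept their calls, while Dbf4 lost its call without CF 1, CF 2, CF 3 or WT 2 and Uhrf1 without CF 1, CF 2, CF 4, WT 1 or WT 2. The mean of the 3 tested probes of Lig1 differed by -0.25 (adjusted p = 0.0281), against -0.53 for the brightest. With CF 1 and WT 3 both left out the count was 2 (Mcm10 and Rfc5). Dut (adjusted p = 0.0518), Lig1 (adjusted p = 0.0703), Dbf4 and Uhrf1 then lost their calls.

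Of 56 other mitosis genes, 21 were tested, and the difference was negative in 21 of 21, with a median of -0.32. The 5 that passed were lower in CF livers, and 0 were higher (12 at an unadjusted p under 0.05 in limma, beside the same 14.7%). Pbk, a mitotic kinase, had levels of 6.13, 6.41, 6.64 and 6.52 in CF livers, against 7.66, 7.55, 6.94 and 6.92 in WT livers. It was above background on 2 CF and 4 WT arrays, the groups did not overlap, and the difference was -0.84 ± 0.19 (SE, adjusted p = 0.0135). Kif11, the spindle motor that separates the poles, differed by -0.33 (adjusted p = 0.0312, 2 of 4 CF arrays above background), Stmn1, a microtubule destabiliser, by -0.55 (adjusted p = 0.0343), Mad2l1, of the spindle checkpoint, by -0.40 (adjusted p = 0.0347), and Cenpa, the centromeric histone, by -0.54 (adjusted p = 0.0462). Of these, Pbk alone kept its call with any single array left out. Kif11, Cenpa and Mad2l1 lost theirs without WT 3, Cenpa and Stmn1 without CF 3, Kif11 without CF 4 and Stmn1 without WT 4. Without CF 1, Kif11 and Pbk passed, and without CF 2, WT 1 or WT 2, or without CF 1 and WT 3 together, only Pbk did. Over the whole list of 21 the count was 2 without CF 1, 1 without CF 2, WT 1 or WT 2, 3 without WT 3, and 1 without CF 1 and WT 3 together. Of the 8 genes listed for polyploidy and cytokinesis, 2 were tested and 0 passed in limma, with an unadjusted p under 0.05 for 1. Anln, a scaffold of the cleavage furrow, differed by -0.42 (adjusted p = 0.0676), and Kif23, a motor of the central spindle, by -0.12 (adjusted p = 0.438).

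Of 47 regulators of the cycle, 29 were tested, and the median difference was 0.00, beside 0.02 for all tested genes. Here 5 were lower and 2 higher in CF livers (17.2% and 6.9%), against 8.79% lower and 11% higher of all tested genes. An unadjusted p in limma was under 0.05 for 10 of the 29, beside 33.4% of all tested genes. Cdkn1a (p21), an inhibitor of cyclin-dependent kinases, had levels of 8.85, 9.40, 9.35 and 8.46 in CF livers, against 7.95, 8.16, 7.72 and 7.73 in WT livers. All CF arrays were above all WT arrays, with a 2.18-fold higher level in CF livers (difference 1.12 ± 0.20 SE, adjusted p = 0.00537). The mean of the 2 tested probes of Cdkn1a differed by 0.93 (adjusted p = 0.00557). Btg1, an antiproliferative gene, was 1.53-fold higher in CF livers by its brightest probe (adjusted p = 0.00616). The mean of its 3 tested probes differed by 0.52 (adjusted p = 0.0485). Ccng1, a p53 target like Cdkn1a, moved the other way and was 1.56-fold lower (difference -0.64, adjusted p = 0.00854) by its brightest probe, while the mean of its 3 tested probes differed by -0.30 (adjusted p = 0.0488). E2f1, an activator of S-phase genes, had levels of 6.89, 6.71, 6.93 and 7.11 in CF livers, against 7.69, 7.60, 7.28 and 7.22 in WT livers, without overlap and 1.45-fold lower in CF livers (adjusted p = 0.0171). Rbl1 (p107), a retinoblastoma relative that binds E2F factors, differed by -0.32 (adjusted p = 0.0153, 1 of 4 CF arrays above background). Cdc25c, a phosphatase that activates Cdk1, was above background on 0 CF and 4 WT arrays and was tested through its WT arrays alone, so a difference was built into its choice. It was at least 1.08-fold lower in CF livers (adjusted p = 0.0370, and 0.0165 to 0.168 over the alternatives, the highest with values floored at the background level). Chek2, the remaining gene of the 5, is a checkpoint kinase and differed by -0.21 (adjusted p = 0.0407). The mean of its 2 tested probes differed by -0.20 and did not pass (adjusted p = 0.057). Cdc25c lost its call whichever of the 8 arrays was left out, and Chek2 for each except CF 4, while the other 5 kept theirs. Without CF 1 and WT 3 together, 4 of the 7 passed, and E2f1 was among those that did not. Foxm1, a transcription factor of mitotic genes, differed by -0.13 and did not pass (adjusted p = 0.396), and Trp53 and E2f8 had no named probe.

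**Figure D4:**
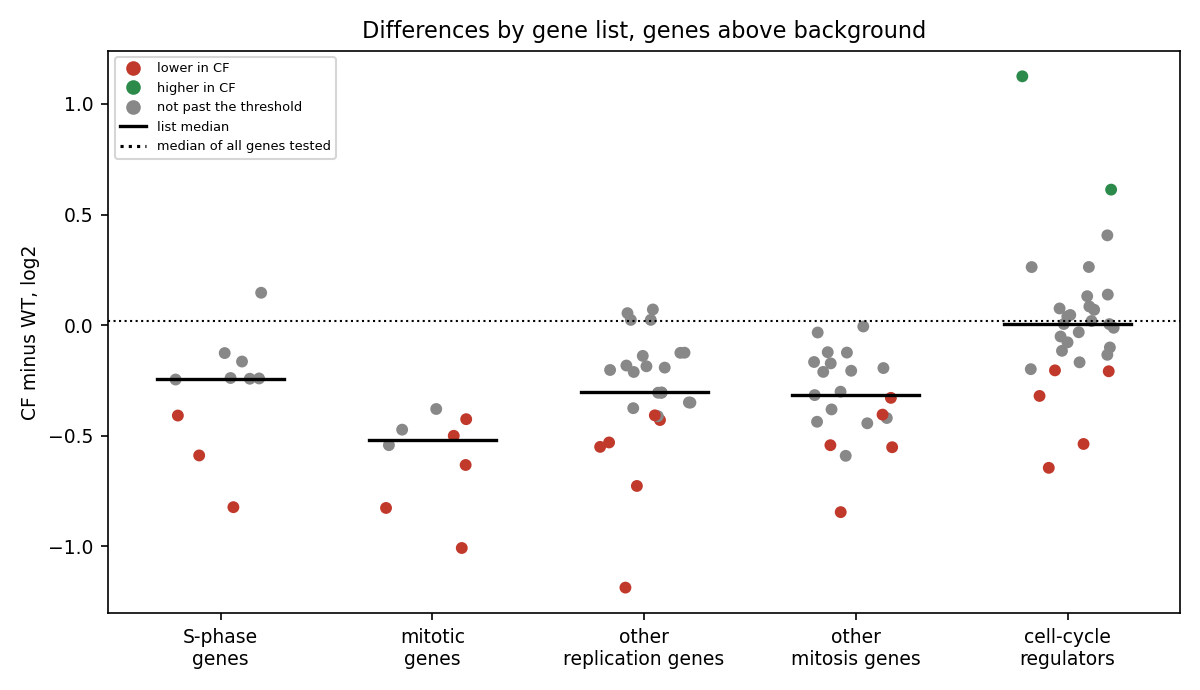
CF minus WT difference on the log2 scale of each tested gene in 5 lists, with the list median as a bar and the median of all 9146 tested genes, 0.02, as a dotted line. The medians are -0.24 and -0.52 for the S-phase and mitotic genes above, -0.30 for other replication genes, -0.32 for other mitosis genes and 0.00 for regulators, where the highest point is Cdkn1a at 1.12.

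Marker genes of liver cell types were read on the same arrays. Of 7 hepatocyte markers tested, 0 passed in limma and 0 had an unadjusted p under 0.05, and the summed linear level of the list was 76470 to 86690 in CF and 79950 to 82730 in WT livers. Erythroid precursors, which divide in the liver of young mice, were read by 7 tested markers of 12 listed. Of these, Klf1, a red-cell transcription factor, was higher in CF livers (difference 0.57, adjusted p = 0.00125), and the other 6 did not pass. That is 14.3% higher, against 11% of all tested genes. An unadjusted p in limma was under 0.05 for 3 of the 7, beside 33.4% of all tested genes. Tfrc, the transferrin receptor, differed by 1.42 (adjusted p = 0.0514) and Epor, the erythropoietin receptor, by 0.23 (adjusted p = 0.0760). Alas2, which starts haem synthesis in red cells, had levels of 9.68, 10.16, 10.31 and 10.49 in CF livers, against 10.25, 11.34, 10.20 and 9.89 in WT livers. Slc4a1, the anion exchanger of red cells, had levels of 7.47, 9.12, 8.97 and 9.52 in CF livers, against 8.51, 9.37, 8.20 and 8.50 in WT livers. The groups overlapped for both, and WT 2, where the mitotic genes were highest, was the highest WT array for both. It was also the highest WT array for Epor and the beta globin gene Hbb-b2, but not for Klf1 or Tfrc. This was not limited to erythroid markers. WT 2 was likewise the highest WT array for Clec4f of macrophages, Clec4g of endothelium and Des of stellate cells, but not for Vsig4, Lyve1 or Dcn. The share of all tested genes with WT 2 as the highest WT array was not counted. For Hba-a1, WT 2 was the lowest of the 8 arrays (14.31). Hba-a1, an alpha globin and the brightest marker, was at 14.46 in CF and 14.47 in WT livers, near the top of the scale. The summed erythroid level was 24660 to 27620 in CF and 24390 to 27370 in WT livers, made mostly of Hba-a1, so it says little of the other markers.

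Neutrophil and myeloid precursor markers were higher in CF livers for 5 of 9 tested (S100a9, S100a8, Ltf, Mpo and Camp), against 11% of all tested genes. Mpo and Camp were above background on 0 of 4 WT arrays and were tested through their CF arrays alone. A difference was thus built into the choice of Mpo and Camp. The median difference of the 9 markers was 0.77. An unadjusted p in limma was under 0.05 for 8 of the 9, beside 33.4% of all tested genes. Lcn2, the brightest of them, was at 13.02 ± 0.91 in CF and 11.81 ± 0.42 in WT livers and did not pass (adjusted p = 0.0644). Their summed level was 5269 to 15410 in CF and 3584 to 6301 in WT livers, with CF 4 within the WT range. The calls in the other lists, given with summed linear levels, were Marco of 10 macrophage symbols (higher, summed level 7260 to 10620 in CF and 6458 to 8161 in WT livers), Lyve1 and Oit3 of 7 endothelial markers (higher, 7263 to 7805 in CF and 6698 to 7761 in WT livers), and Dcn (higher) and Lrat (lower) of 8 stellate cell markers (11720 to 14760 in CF and 9995 to 11840 in WT livers). Emr1 and Adgre1 are symbols of the same gene and probe, which enters the macrophage sum under each. Of all tested genes, 11% were higher and 8.79% lower in CF livers. An unadjusted p was under 0.05 for 6 macrophage, 3 endothelial and 3 stellate cell markers, beside 33.4% of all tested genes. The brightest markers of these lists were Vsig4 of macrophages (difference 0.20, adjusted p = 0.146), Clec4g of sinusoidal endothelium (-0.16, adjusted p = 0.168) and Dcn (0.32, adjusted p = 0.0263). Of the 5 lymphoid, 3 cholangiocyte and 13 pancreas and intestine markers tested (Cela3b entered also as Ela3), 0 passed in limma, and 0 had an unadjusted p under 0.05. Their brightest were Cd79b of B cells (0.16), Krt7 of bile ducts (-0.01) and the elastase Cela2a (0.19). The part of any of these cell types in the lower level of the replication and mitosis genes was not tested.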

How the data were processed

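Liver RNA of 4 CF and 4 WT samples was read on single-colour bead arrays. GenomeStudio is named in the submitters' processing notes, without a version. The values analysed are the log2 levels of 25697 probes that the authors deposited. Their sorted values were equal between arrays to within 0.000351, so the authors had quantile-normalized them, which removes any change shared by most transcripts. The background correction and the exact transform are not given in the sources used here, so differences near background have an unknown scale. The scanner table has 32 columns, 8 of them signals, named by position on 1 chip. The labels tie no position to a sample, and the table was not used.

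The background level of 6.47 is 1.645 spreads of 0.173 above the mode of 6.18. A probe was tested where at least 4 arrays exceeded that level, which left 12923 probes. The test was the two-sided moderated test of limma 3.58.1 (R 4.3.3) with genotype alone in the model, and the procedure was tested on simulated data. The brightest probe by its mean over 8 arrays stood for a gene. Where a group was near background on all its arrays, a lower bound against the background level is given. Probe names came from the platform annotation, and promoter windows from RefSeq tables.

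The genes and the comparison lists were chosen with earlier results of these data known, so no list was tested as a whole and no p-value is given over the genes. All 33 genes are named, with up to 6 genes past the threshold of each pathway list by adjusted p, the 2 genes of lowest p where none passed, marker genes past the threshold, and the brightest marker of each list. Chek2, Foxm1, Trp53, E2f8, Alb, Tat, Fgb, Tfrc, Epor, Alas2, Slc4a1 and Hbb-b2 fall outside this rule and were named after their values were seen. The precision is limited by 4 arrays per genotype, since arrays have no read depth.

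The labels do not state that equal replicate numbers pair samples, so no pairing was used. Other settings were tried for the variance prior, the threshold, the dim-probe filter, the probe choice, array weights and scaling (cyclic loess, a floor at the background level), with the replicate number as a block, and without single arrays or without CF 1 and WT 3. A background level from a narrower density was added after seeing the data.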

Additional observations from a re-analysis of the deposited data

Results flagged for a closer look

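Of the 94 groups of 4 arrays examined, over the genes named with values per array, 1 held an array set apart from the other 3 of its group. For Rfc5, the clamp loader subunit, CF 3 was at 7.19, below the other CF arrays, the nearest of which was at 7.29. That gap was 0.88 of the range of the CF arrays, past the critical value of Dixon's test for 4 samples. Chance sets apart about 1 in 20 such groups. The CF arrays of Rfc5 lay below all WT arrays with or without CF 3.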

How the results depend on the processing

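Among 340 values for the 18 tested genes over the alternatives, 312 kept direction and side of the threshold, 22 lost the call, 6 gained it and 0 reversed. For the 18 other pathway genes that passed, 264 of 336 kept the call, 72 lost it and 0 reversed. Mcm5, Tyms and Prc1 kept their calls in each alternative. Deviations from the genotype mean correlated at -0.327, 0.062, -0.288 and 0.0882 for equal replicate numbers, so the numbers were not taken to pair samples. With the replicate number as a block, calls were 4 of 18 genes in place of 8, 2 mitotic genes in place of 5, and 7 pathway genes in place of 18, made of 3 replication genes in place of 6, 0 other mitosis genes in place of 5, and 4 regulators in place of 7. With CF 1 and WT 3 both left out, the counts were 4, 2, 7, 2, 1 and 4 in the same order. Of all tested probes, 5.34% were lower in CF livers with the block and 4.09% without CF 1 and WT 3, against 8.8% in the main fit. Fewer samples or degrees of freedom enter both fits, and any further cause was not tested. Requiring signal above background on all 8 arrays gave 3 other mitosis genes and 4 regulators, since fewer genes are then tested. A threshold of 0.1 gave 5 S-phase genes in place of 3, 30 pathway genes, 11 other mitosis genes and 1 polyploidy gene in place of 0.

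With each array left out in turn, calls ranged from 5 to 9 for the 18 genes, 2 to 4 for S-phase genes, 3 to 6 for mitotic genes, 11 to 20 for pathway genes, 4 to 8 for other replication genes, 1 to 7 for other mitosis genes, 5 to 6 for regulators and 0 to 1 for polyploidy genes. Of all tested probes, 5.87% (without WT 3) to 7.37% (without CF 2) were lower in CF livers in these fits, against 8.8% with all arrays. The median difference ranged from -0.29 to -0.17 for S-phase genes and from -0.66 to -0.40 for mitotic genes. The background level from a narrower density, chosen after seeing the data, gave the same counts of 8, 3 and 5. Signal near background limits 11 of the 29 genes with a probe.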
